A study of Mus musculus with 78 samples.

Results

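Zfp352, the 2 Tcstv genes Tcstv1 and Tcstv3, and the 5 Usp17l genes Usp17la, Usp17lb, Usp17lc, Usp17ld and Usp17le are transcribed in the mouse embryo at the 2-cell stage. They were taken by gene name, 8 of the 54446 genes in the RNA-seq tables, and all 8 are also among the 54435 genes of the nascent RNA table. The transcriptional program that they belong to starts when the embryonic genome is first switched on, under factors such as Dux, and much of it is driven from long terminal repeats of endogenous retroviruses (ERVs). In mouse embryonic stem cell (mESC) cultures, the same genes are on in a rare and transient cell state known as 2-cell-like. Zfp352 encodes a zinc finger protein, Tcstv1 and Tcstv3 encode small proteins linked to telomere maintenance, and the Usp17l genes encode deubiquitinating enzymes, which remove ubiquitin from other proteins.

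The study degraded TRIM28, a corepressor that brings H3K9 methylation to ERVs, in mESCs (line V6.5, serum/LIF medium). The TRIM28-FKBP line was grown from a picked single colony, so it is 1 clone. It carries mRuby2, a P2A linker and a degron (FKBP F36V) knocked in at the start of TRIM28, and the compound dTAG-13 sends the tagged protein for degradation. RNA was sequenced from cells in DMSO and after 2, 6, 24 and 96 h of 500 nM dTAG-13, and nascent RNA (TT-SLAM-seq, a 15 min pulse of 500 µM 4-thiouridine, with reads kept only when they carried T-to-C conversions) for DMSO and for 2, 6 and 24 h. The shERV line (labelled shREPEATS) carries, in addition, hairpins against the RNAs of the IAP, MMERVK10C, MMERVK9C and MMETn families, under doxycycline (Dox), and was sequenced after DMSO, after 24 h of dTAG-13, and after dTAG-13 with 2 µg/ml Dox. The labels' protocol gives a Dox pretreatment for all 3 of these groups, while their treatment field names Dox for the last group only. In the paper, the hairpins were expressed for 24 h ahead of the 24 h of degradation. Untreated parental V6.5 cells without the tag and neural progenitor cells (NPC) in DMSO completed the RNA-seq, with 3 libraries in every group, 30 in all, beside 12 nascent RNA libraries. ChIP-seq peaks were used for H3K9me3 and H3K27Ac (3 libraries each without and with 24 h of dTAG-13) and for RNA polymerase II (RNAPII) and the Mediator subunit MED23 (2 each). The study's methods describe removal of feeder fibroblasts ahead of RNA-seq in general, whereas the labels give growth on feeders, and name no such removal, for the shERV and parental cells. Nothing in the labels ties a replicate number to a separate derivation of the line. The paper's figure legends describe 3 biological replicates for the nascent RNA and for the RNA-seq of the time course and the shERV line. Its methods call the nascent RNA replicates technical where their tracks were merged. The p-values therefore measure the spread between these samples, which may be technical.

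The genes are few in locus and close in sequence, which bears on every value. Zfp352 lies on chr4:90218820-90225702 (plus strand) and spans 2 annotated exon blocks of the build GRCm38 (mm10). Tcstv1 (chr13:119893388-119894785, minus strand) and Tcstv3 (chr13:120316878-120318178, plus strand) share 91.4% of their aligned transcript bases. The Usp17l genes form 2 groups on chromosome 7. Usp17ld (chr7:103249737-103252505, minus) and Usp17lc (chr7:103415072-103419880, plus) make up the first, and Usp17le (chr7:104768049-104777470, minus), Usp17lb (chr7:104840257-104842603, minus) and Usp17la (chr7:104857009-104862667, plus) the other. Identity between Usp17l transcripts ran from 90.5% (Usp17lb with Usp17le) to 97.9% (Usp17lc with Usp17ld). Of the 50-base stretches of its transcripts, 92.9% were found in no other annotated gene for Zfp352, 85.0% for Tcstv1, 68.6% for Tcstv3 and 80.7%, 78.6%, 70.2%, 55.3% and 48.9% for Usp17la, Usp17lb, Usp17le, Usp17lc and Usp17ld. Reads from the remaining stretches could be given to a near-identical copy, among them Gm5053 and Usp17le-ps for the Usp17l genes and AF067061, Gm21818 and Gm21761 for the Tcstv genes, so the split of a family's RNA among its members is less certain than the family's sum.

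The sequences before the start sites are shown for 4 members because a MED23 peak fell on 1 of them and because the other 3, of near-identical sequence, differed in their change at 24 h of TRIM28 degradation. They are the 250 bases before the RefSeq start (GRCm38.p6), read in the direction of transcription. Capitals mark a repeated 12-base unit in Zfp352 (chr4:90218570-90218819, plus strand), and in Usp17la (chr7:104856766-104857015, plus), Usp17lb (chr7:104842584-104842833, minus) and Usp17ld (chr7:103252506-103252755, minus) they mark the letters TATAAA and CCAAT, or ATTGG for CCAAT on the other strand.
Zfp352: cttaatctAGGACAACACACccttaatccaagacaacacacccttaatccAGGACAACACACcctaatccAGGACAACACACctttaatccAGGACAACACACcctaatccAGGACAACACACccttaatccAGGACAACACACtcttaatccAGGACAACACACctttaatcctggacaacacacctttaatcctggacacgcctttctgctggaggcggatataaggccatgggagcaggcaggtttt
Usp17la: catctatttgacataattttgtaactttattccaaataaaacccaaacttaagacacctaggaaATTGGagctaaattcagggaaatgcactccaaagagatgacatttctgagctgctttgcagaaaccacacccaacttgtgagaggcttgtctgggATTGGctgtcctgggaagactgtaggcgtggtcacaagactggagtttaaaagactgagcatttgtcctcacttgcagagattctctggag
Usp17lb: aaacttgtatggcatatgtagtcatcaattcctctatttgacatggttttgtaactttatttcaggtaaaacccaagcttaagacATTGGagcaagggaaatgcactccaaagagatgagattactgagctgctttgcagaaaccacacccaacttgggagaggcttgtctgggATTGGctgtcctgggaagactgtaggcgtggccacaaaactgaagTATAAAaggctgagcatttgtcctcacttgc
Usp17ld: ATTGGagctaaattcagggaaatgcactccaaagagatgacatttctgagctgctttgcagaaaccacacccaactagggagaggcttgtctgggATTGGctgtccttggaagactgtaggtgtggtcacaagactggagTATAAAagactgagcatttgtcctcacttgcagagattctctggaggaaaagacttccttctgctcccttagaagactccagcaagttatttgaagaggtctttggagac
The Zfp352 window holds 7 exact copies of the unit AGGACAACACAC, whose starts are 20 to 42 bases apart, and of 32851 promoters of this length, searched on both strands, that of Zfp352 alone holds the unit. The unit was picked from this same window as its most repeated 12 bases. How many promoters hold other 12-base units was not tested, so the absence elsewhere has no comparison. Over their aligned bases, the Usp17l windows (Usp17lc included) were 92.1% to 97.3% identical. TATAAA was found in the windows of Usp17lb, Usp17lc and Usp17ld, beginning 31, 88 and 110 bases before the RefSeq start, and these letters were not in that of Usp17la. The letters stand at the same place of the shared sequence, where Usp17la reads tttaaa. Their distances differ because the RefSeq starts lie at different points of that sequence. CCAAT was found in all 4 Usp17l windows. Searched on both strands, TATAAA is in 12.4% and CCAAT in 33.8% of all promoters. Tcstv1, Tcstv3 and Usp17le were not matched in the promoter table.

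In the untreated tagged line, all 8 genes had low but measurable mRNA. Levels are given in TPM, which the authors' software scales to transcript length and to a fixed total per library, so genes can be compared per length. Tcstv3 stood highest at 8.03 ± 0.50 TPM (SD, n = 3 libraries). Next came Usp17lc at 6.96 ± 0.93, Usp17lb at 5.89 ± 0.14 and Usp17le at 5.53 ± 0.22 TPM. Tcstv1 (4.55 ± 0.14), Usp17ld (3.18 ± 0.28), Zfp352 (2.60 ± 0.23) and Usp17la (2.23 ± 0.17) followed. The libraries of Tcstv3 and Usp17lc, of Usp17lc and Usp17lb, and of Zfp352 and Usp17la overlapped, and those of the other neighbours in this order did not. In bulk RNA, fewer expressing cells and less RNA per cell cannot be told apart.

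Parental cells without the tag had far lower levels of the whole set. Their 3 libraries read 0.234, 0.0698 and 0.166 TPM for Zfp352, 0.389, 0.319 and 0.639 TPM for Tcstv3, and 0.589, 0.691 and 0.774 TPM for Usp17le, which was the highest member there. Summed over the 8 genes, the libraries were at 2.58, 2.62 and 2.97 TPM, against 38.0, 38.8 and 40.1 TPM in the tagged line in DMSO. The ratio of the group means, tagged over parental, ran from 8.08 to 21.6 with a median of 15.1 over the members. In this fit 9.15% of 17458 genes were called lower in parental cells. The members passed its filter through the tagged libraries alone, so their calls are not counted. All 28 other 2-cell genes that were listed, such as the Zscan4 cluster, had a summed level of 31.3 to 32.1 TPM in parental and 391 to 421 TPM in tagged cells. Trim28 itself was at 1387 to 1418 TPM in parental cells and 622 to 626 TPM in the tagged line. The summed level of 8 feeder fibroblast markers was 103 to 105 TPM in parental and 23.8 to 25.4 TPM in tagged cells, while 6 trophoblast markers summed to 43.1 to 44.8 TPM in parental and 430 to 458 TPM in tagged cells. Pluripotency markers summed to 5475 to 5573 and 3470 to 3804 TPM. The part of these lists in the difference was not tested. The tag, the picked clone, the growth on feeders that the labels give for parental cells, and DMSO against no treatment cannot be told apart here. For the tagged line, the paper reported an expression profile similar to that of the parental cells.

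In NPC, 5 Usp17l genes and Tcstv1 were listed at 0 in all 3 libraries. Zfp352 was listed at 0, 0.0303 and 0 TPM and Tcstv3 at 0, 0.0961 and 0 TPM. Of 17458 genes, 20.7% were called lower in NPC than in mESCs, and no fold is given for the members because their NPC values are listed at or near 0. The tissue check was plain: 6 neural markers summed to 3320 to 3364 TPM in NPC and 66.3 to 67.5 TPM in mESCs in DMSO.

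**Figure D1:**
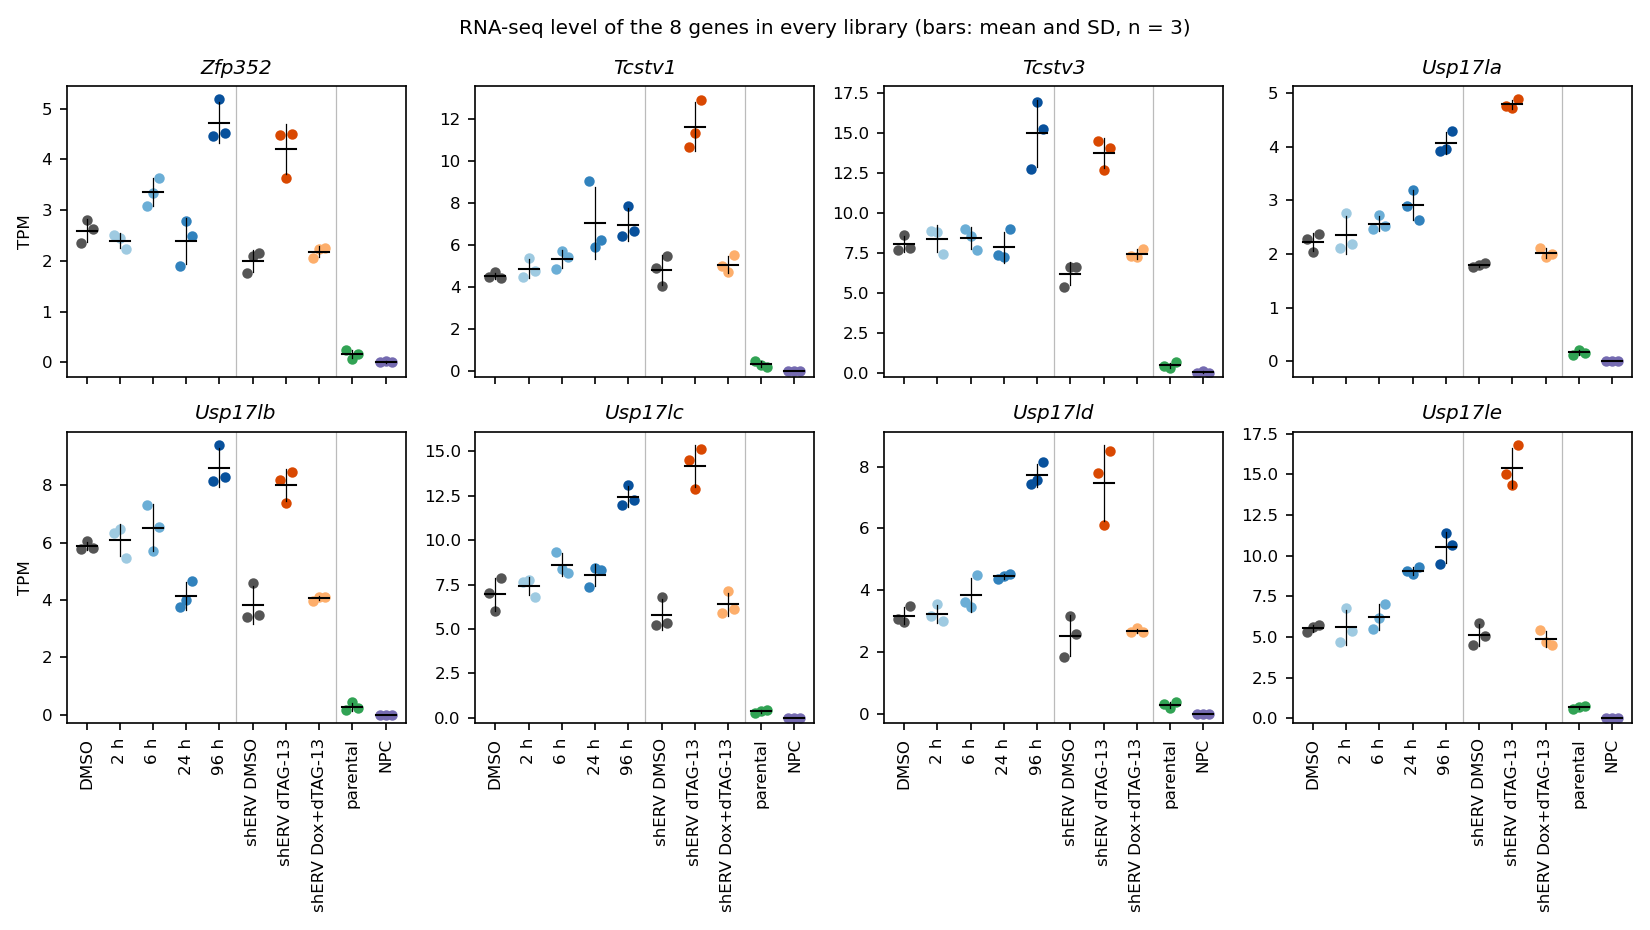
TPM of each gene (vertical axis, 1 panel a gene) in the 30 RNA-seq libraries, grouped along the horizontal axis: DMSO and 2, 6, 24 and 96 h of dTAG-13 in the TRIM28-FKBP line, the 3 groups of the shERV line, parental cells and NPC. Points are libraries, horizontal bars the mean and vertical bars the SD (n = 3). Every gene is below 1 TPM in the parental and NPC groups, stands above DMSO at 96 h, and is highest within the shERV line after dTAG-13 alone.

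Trim28 mRNA, the target, was measured in every library, although the degron acts on the protein and the mRNA does not measure it. It stood at 622, 622 and 626 TPM in DMSO, 600, 607 and 591 TPM at 2 h, 452, 538 and 495 TPM at 6 h, 369, 365 and 382 TPM at 24 h and 186, 185 and 204 TPM at 96 h. The mRNA was therefore lower at each later time, with no overlap between DMSO and any time from 2 h on.

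During the first 6 h of TRIM28 degradation the 8 genes moved little. The comparisons with DMSO at all times share its 3 libraries. At 2 h none of the 8 was called changed (adjusted p below 0.05 and more than 2-fold, limma with Benjamini-Hochberg adjustment), and the differences on the scale log2(TPM + 0.5) ran from -0.09 (Zfp352) to 0.09 (Tcstv1 and Usp17lc), all with a 95% interval that held 0. No member passed an unadjusted p of 0.05 at 2 h. Of all 17922 genes, 0.251% were called higher. At 6 h no member was called either, with 0.776% of genes called higher. On the adjusted p alone, 1 of 8 was higher, Usp17lc at 9.36, 8.37 and 8.14 TPM against 7.02, 6.00 and 7.85 TPM in DMSO (difference 0.30 ± 0.09 SE on log2, adjusted p = 0.0248 by limma). This share is to be read against the 18.4% of all genes that were higher on that rule, and the adjusted p of Usp17lc was 0.0929 once the libraries were shifted to a common median gene. Zfp352, at 3.08, 3.34 and 3.63 TPM against 2.35, 2.81 and 2.63 TPM, had an adjusted p of 0.0531 in the same limma fit, and its libraries did not overlap with those in DMSO, nor did those of 3 other members, 4 of 8 in all against 24.9% of all genes.

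At 24 h the members parted. Usp17le stood at 9.04, 8.85 and 9.31 TPM against 5.28, 5.61 and 5.71 TPM in DMSO. Usp17ld reached 4.38, 4.47 and 4.54 TPM from 3.06, 2.97 and 3.5 TPM. Both were above DMSO in every library, by 0.67 ± 0.11 and 0.43 ± 0.10 (SE) on the log2 scale, with adjusted p = 0.000141 and 0.00116 by limma. Tcstv1 also passed, with 9.05, 5.92 and 6.26 TPM against 4.48, 4.71 and 4.46 TPM (difference 0.56 ± 0.13, limma adjusted p = 0.00163). Its highest value comes from the 24 h library with the lowest relative depth, 0.322 of the median library, and without that library the difference was 0.38 (adjusted p = 0.00435). Usp17la passed with a smaller difference of 0.32 ± 0.10 (adjusted p = 0.0126 in limma).

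Usp17lb went the other way at 24 h. Its libraries read 3.75, 3.99 and 4.67 TPM against 5.79, 6.05 and 5.83 TPM in DMSO, so all 3 lay below DMSO, and the log2 difference was -0.47 ± 0.10 (limma adjusted p = 0.000925). Usp17la, its neighbour 14.4 kb away on the other strand, was at 2.90, 3.20 and 2.64 TPM against 2.28, 2.04 and 2.37 TPM. Zfp352 (1.89, 2.78 and 2.49 TPM, difference -0.11 ± 0.12), Tcstv3 (7.36, 7.24 and 8.98 TPM, -0.03 ± 0.11) and Usp17lc (7.35, 8.45 and 8.31 TPM, 0.20 ± 0.09) did not pass, and their libraries overlapped with DMSO. All libraries were thus above DMSO for 4 of 8 members and below it for 1, against 43.9% and 26.2% of all genes. None of the 8 exceeded 2-fold, while 10.1% of all genes were called higher. On adjusted p alone, 4 of 8 were higher and 1 was lower, against 42.9% and 25.0% of all genes.

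The split at 24 h depended on the scaling. The median over all genes tested was 0.13 at 24 h, so most genes were listed slightly higher. With libraries centred on their median gene the median of all genes became -0.16 and the median of the members went from 0.26 to -0.03. Then only Usp17le remained higher (1 of 8 on adjusted p), and 3 of 8 were lower, namely Usp17lb, Zfp352 (-0.40, adjusted p = 0.00679 by limma) and Tcstv3 (-0.32, adjusted p = 0.0186).

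By 96 h every member stood above DMSO. Zfp352 was at 4.46, 5.19 and 4.53 TPM, Tcstv3 at 12.7, 16.9 and 15.3 TPM and Usp17ld at 7.44, 7.58 and 8.15 TPM. For each of the 8 genes, all 3 libraries were above the 3 in DMSO, as they were for 44.4% of all genes. On the log2 scale the differences were 0.75 ± 0.12 for Zfp352, 0.56 ± 0.13 for Tcstv1 and 0.85 ± 0.11 for Tcstv3. Among the deubiquitinase genes they were 0.74 ± 0.10 for Usp17la, 0.51 ± 0.10 for Usp17lb, 0.80 ± 0.09 for Usp17lc, 1.16 ± 0.10 for Usp17ld and 0.86 ± 0.11 for Usp17le. The rise passed the adjusted p in limma for 8 of 8 (highest adjusted p = 0.00119, Tcstv1), against 42.9% of all genes, and exceeded 2-fold for Usp17ld alone (1 of 8, against 20.3% of all genes). The median difference of the members was 0.78 and that of all genes 0.05. After centring, the members' median was 0.50, 7 of 8 passed (all but Tcstv1), and Usp17ld no longer exceeded 2-fold.

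Much of the rise at 96 h came after 24 h, in a comparison that shares its 24 h and 96 h libraries with those above. Usp17lb went from 3.75, 3.99 and 4.67 TPM to 8.16, 9.40 and 8.28 TPM, a log2 difference of 0.98 ± 0.10. Tcstv3 and Zfp352 differed by 0.89 ± 0.11 and 0.86 ± 0.12. These 3 are the members that had not risen at 24 h, together with Usp17lc (0.60 ± 0.09). Usp17ld (0.73 ± 0.10) and Usp17la (0.42 ± 0.10) rose further, whereas Tcstv1 (0.00, 95% interval -0.28 to 0.28) and Usp17le (0.20, -0.05 to 0.44) did not pass. In all, 6 of 8 were higher on the limma adjusted p, against 37.4% of genes, and none was called, against 13.7%. Summed over the Usp17l family, which depends less on how reads were split among its members, the libraries read 23.4, 22.7 and 25.3 TPM in DMSO, 27.4, 29.0 and 29.5 TPM at 24 h and 41.0, 45.4 and 43.6 TPM at 96 h. For Tcstv1 and Tcstv3 together the sums were 12.2, 13.3 and 12.3 TPM, 16.4, 13.2 and 15.2 TPM, and 19.2, 24.8 and 21.9 TPM. The family sums were thus above DMSO at 96 h in every library.

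The cells changed broadly by 96 h. The summed level of 8 pluripotency markers was 3470 to 3804 TPM in DMSO and 312 to 351 TPM at 96 h, with 8 of 8 above 1 TPM in both. Feeder fibroblast markers went from 23.8 to 25.4 TPM to 286 to 311 TPM, with 4 of 8 and then 8 of 8 above 1 TPM. Trophoblast markers went from 430 to 458 TPM to 2870 to 3002 TPM. The part of these changes in the members' rise was not tested.

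In the shERV line, 24 h of dTAG-13 raised the whole set. Usp17le was at 15.0, 14.4 and 16.8 TPM against 4.49, 5.87 and 5.03 TPM in DMSO, the largest difference (1.50 ± 0.10 on log2, limma adjusted p = 3.64e-07). Tcstv1 was at 10.7, 11.4 and 12.9 TPM against 4.92, 4.06 and 5.48 TPM (1.20 ± 0.11), and Tcstv3 at 14.5, 12.7 and 14.1 TPM against 5.34, 6.60 and 6.61 TPM (1.10 ± 0.09). For these genes and the other 5 all dTAG-13 libraries were above all DMSO libraries, as for 45.0% of all genes. The other deubiquitinase genes differed by 1.41 ± 0.15 (Usp17ld), 1.23 ± 0.11 (Usp17lc), 1.21 ± 0.09 (Usp17la) and 0.99 ± 0.10 (Usp17lb). Zfp352, at 4.48, 3.63 and 4.5 TPM against 1.75, 2.09 and 2.15 TPM, differed by 0.91 ± 0.11. All 8 passed the adjusted p in limma, against 41.2% of 16166 genes, and 6 were called higher, against 2.38% of all genes. The remaining 2, Zfp352 and Usp17lb, lay just under 2-fold. The median difference was 1.20 for the members and 0.14 for all genes, and 1.04 and -0.03 after centring.

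In the group labelled with both dTAG-13 and Dox, which induces the ERV hairpins, the 8 genes stood near the level without degradation. Usp17le read 5.43, 4.71 and 4.52 TPM, Tcstv1 5.02, 4.71 and 5.52 TPM, and Zfp352 2.05, 2.23 and 2.26 TPM. Every library lay below every library with dTAG-13 alone for each of the 8 genes, as for 36.0% of all genes. Against dTAG-13 alone the differences were -0.81 ± 0.11 for Zfp352, -1.12 ± 0.11 for Tcstv1, -0.85 ± 0.09 for Tcstv3, and from -0.90 ± 0.10 (Usp17lb) to -1.56 ± 0.10 (Usp17le) for the Usp17l genes. All 8 were lower on the adjusted p in limma, against 29.3% of all genes, and 5 were called lower (Tcstv1, Usp17la, Usp17lc, Usp17ld and Usp17le), against 1.96%. The median difference was -1.08 for the members and -0.04 for all genes.

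Against DMSO, the Dox and dTAG-13 group was not called different for any member. The log2 differences ran from -0.06 (Usp17le, 95% interval -0.28 to 0.16) to 0.25 (Tcstv3, 0.06 to 0.44), and the lowest limma adjusted p was 0.222, for Tcstv3. Across all genes 1 of 16166 (0.00619%) was called higher. On the looser rule of an unadjusted p below 0.05, 1 of 8 members passed, Tcstv3. The share of all genes on that rule is not given here, so this count has no comparison. A residual difference of up to 0.44 on log2 remains within these intervals. The comparisons of dTAG-13 with DMSO and of Dox and dTAG-13 with dTAG-13 share the dTAG-13 libraries. Feeder markers summed to 105 to 125 TPM over all 9 libraries of this line. Pluripotency markers summed to 1913 to 2241 TPM in DMSO, 904 to 943 TPM with dTAG-13, and 2171 to 2204 TPM with Dox and dTAG-13. Trophoblast markers summed to 640 to 708, 947 to 1002 and 688 to 710 TPM in the same groups. These sums do not describe the trophoblast markers as a set. With dTAG-13 against DMSO, 0 of the 5 tested were called, and their median was -0.03 beside 0.14 for all genes. With Dox and dTAG-13 against dTAG-13 alone, 0 of 5 were called, with a median of -0.22 beside -0.04. The part of these lists in the members' change was not tested.

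**Figure D2:**
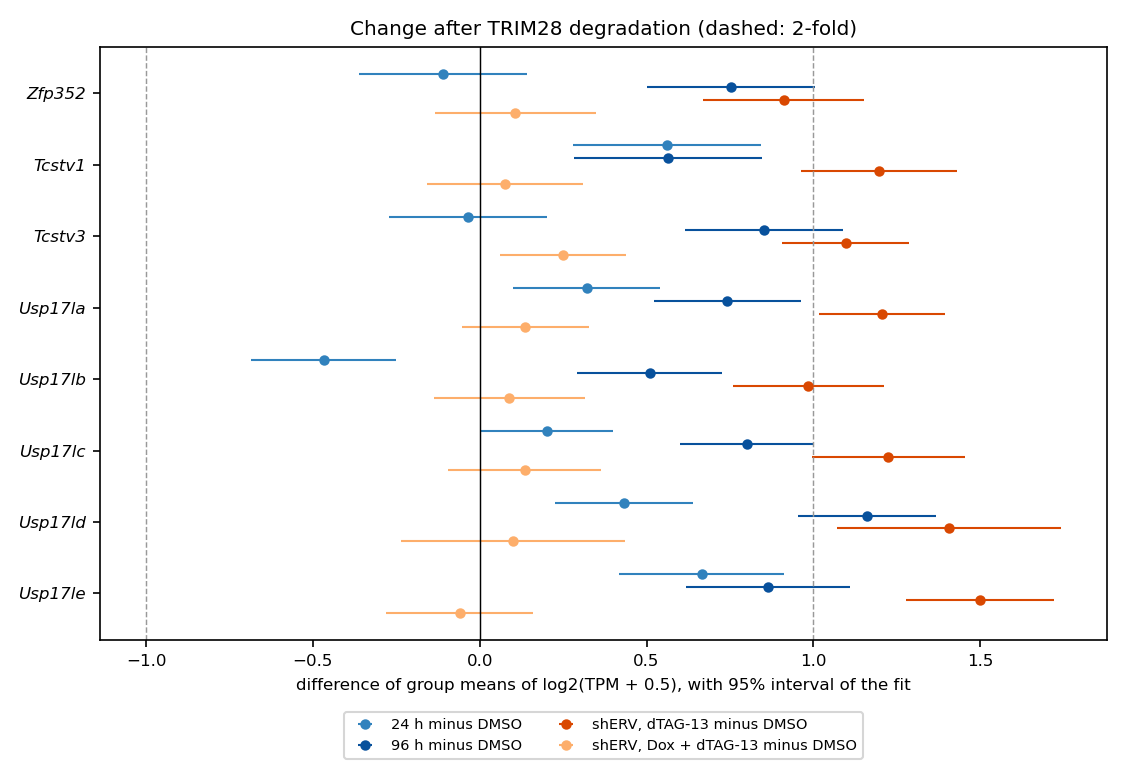
Differences of group means on the scale log2(TPM + 0.5) for the 8 genes (vertical axis), with 95% intervals of the limma fit, for 24 h and 96 h of dTAG-13 in the TRIM28-FKBP line and for dTAG-13 and Dox with dTAG-13 in the shERV line, each against its own DMSO group. Dashed lines mark a 2-fold difference. Usp17lb lies at -0.47 at 24 h in the TRIM28-FKBP line and at 0.99 in the shERV line, and the points with Dox lie between -0.06 and 0.25.

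The same 24 h of dTAG-13 thus gave different responses in the 2 lines, and this difference was tested directly. In a fit over the 24 libraries, the response in the shERV line minus that in the time course was 1.45 ± 0.15 for Usp17lb on the log2 scale (limma adjusted p = 9.96e-08). It was 1.13 ± 0.15 for Tcstv3 and 1.02 ± 0.16 for Zfp352, and from 0.63 ± 0.18 (Tcstv1) to 1.02 ± 0.15 (Usp17lc) for the others. All 8 were higher on the adjusted p, against 27% of 18626 genes, and 4 were called (Zfp352, Tcstv3, Usp17lb and Usp17lc), against 2.14%. The line, the library type (messenger RNA against total RNA with ribosomal RNA removed) and the culture protocol cannot be told apart here. Trim28 mRNA was at 252 to 283 TPM in the shERV line in DMSO and 203 to 213 TPM with dTAG-13, against 622 to 626 and 365 to 382 TPM in the time course. In the shERV group with Dox and dTAG-13 its mean was 284 TPM, against means of 270 TPM in DMSO and 206 TPM with dTAG-13 alone. Whether this bears on the members' levels was not tested.

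Other 2-cell genes gave a frame for the members. The list is not fully separate from them, because it holds AF067061 and Zfp353-ps. AF067061 shares 50-base stretches with Tcstv1 and Tcstv3, and Zfp353-ps with Zfp352, so reads could be given to either gene. Of 28 listed genes, 22 passed the filter in each line. At 2 and 6 h none was called. At 24 h, 1 was called higher (against 10.1% of all genes), Tdpoz3 (1.15 ± 0.15), a member of a 2-cell gene family, and the list's median was -0.16 beside 0.13 for all genes. At 96 h, 3 of 22 were called higher (against 20.3% of all genes), Tdpoz3 (1.56 ± 0.15), B020004J07Rik (1.42 ± 0.17) and Gm4340 (1.01 ± 0.16), with a median of 0.56 beside 0.05. Between 24 and 96 h, 4 of 22 were called higher (against 13.7%), among them B020004J07Rik (1.47 ± 0.17), Arg2 (1.38 ± 0.14), which encodes an arginase, and Tdpoz4 (1.02 ± 0.18). None was called lower at any of these times. In the shERV line, 14 of 22 were called higher with dTAG-13 (against 2.38%), led by Tdpoz3 (2.65 ± 0.18), B020004J07Rik (1.75 ± 0.12) and Pramef25 (1.64 ± 0.09), and the list's median was 1.25. With Dox, 12 of 22 were called lower than with dTAG-13 alone (against 1.96%), led by the same 3 genes (-2.78 ± 0.18, -1.71 ± 0.12 and -1.49 ± 0.09), and none was called against DMSO. In this line 20 listed genes had a mean of at least 1 TPM in DMSO, 21 with Dox and dTAG-13, and 22 with dTAG-13 alone. Some of the 22 may thus have passed the filter only through the dTAG-13 libraries, where they are high, which would favour both counts. For the difference between lines, 10 of 23 were called higher (against 2.14%), with Arg2 (1.86 ± 0.20), Zscan4b (1.82 ± 0.12) and B020004J07Rik (1.80 ± 0.22) at the top. The Zscan4 genes encode SCAN domain zinc finger proteins of the 2-cell stage.

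Known regulators of the 2-cell program were also measured, 19 genes that all passed the filter. At 24 h, 2 were called lower, Zfp42 (-1.26 ± 0.05), which encodes REX1, and Dppa2 (-1.08 ± 0.05), an activator of Dux, against 2.01% of genes called lower. At 96 h, 8 of 19 were called lower, among them Zfp42 (-2.33 ± 0.05), Rif1 (-1.90 ± 0.04), a repressor of the program, and Trim28 itself (-1.70 ± 0.05), against 12.4% of genes. Between 24 and 96 h, 5 of 19 were lower (against 16.5% of genes), with Rif1 (-1.48 ± 0.04), Mga (-1.22 ± 0.05) and Chaf1b (-1.13 ± 0.04), a subunit of the CAF-1 histone chaperone, in front. In the shERV line only Zfp42 was called, lower with dTAG-13 (-1.49 ± 0.06, against 1.44% of genes called lower) and higher with Dox than with dTAG-13 alone (1.47 ± 0.06, against 1.49%). The difference between lines was called for Dppa2 alone (1.24 ± 0.07), against 2.14% of genes called higher. Parental cells had higher Zfp42 (1.45 ± 0.03) and Trim28 (1.16 ± 0.02), the only 2 of the 19 called there. The share of all genes called higher in parental cells is not given here, so this count has no comparison.

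Nascent RNA of the 8 genes was near the limit of the TT-SLAM-seq data. Values are FPKM, which corrects for gene length and library size, and working back through the gene's length gave whole reads for 98.3% to 99.4% of low values per library (within 0.1 of a whole number). The 12 libraries held 5740129 to 21326163 such reads each. Over the 3 DMSO libraries, Zfp352 had 14, 22 and 1 reads, Usp17lb 5, 8 and 4, Usp17lc 7, 5 and 2, and Tcstv3 0, 2 and 0. No member reached 0.35 FPKM in any library, so 0 of 8 passed the filter of 0.5 FPKM in 3 libraries and none was tested there. A count of 0 allows up to 3 reads, for counting error only.

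The groups differed in depth, with 28009857 reads over the DMSO and 45116376 over the 24 h libraries, so levels are compared in FPKM. Zfp352 was at 0.279, 0.254 and 0.0127 FPKM in DMSO and at 0.0898, 0.106 and 0.0673 FPKM at 24 h, with overlap. Its mean was 0.182 ± 0.147 in DMSO and 0.0877 ± 0.0195 at 24 h (SD, n = 3). Usp17le was at 0.0291, 0.00842 and 0.0558 in DMSO and at 0.0744, 0.0569 and 0.0983 at 24 h, over 9 and 34 reads. Usp17la was at 0, 0.0701 and 0.0155 FPKM and at 0.117, 0.0861 and 0.0818 FPKM, over 6 and 29 reads. For these 2 of the 7 members with at least 10 reads over the 12 libraries, every 24 h library stood above every DMSO library, as for 36.5% of the 26548 genes with that many reads. Usp17lb, whose mRNA was lower at 24 h, was at 0.292, 0.271 and 0.150 FPKM in DMSO and 0.246, 0.332 and 0.329 FPKM at 24 h, with overlap. When reads were tested directly on those 26548 genes, an alternative chosen after the data were seen, 7 of 8 members entered and none was called or passed the adjusted p in limma's voom. Usp17la alone was higher at 24 h on the unadjusted p (0.0247, limma adjusted p = 0.0669). With no filter, limma tested all 8 and none passed the adjusted p, while Usp17la (unadjusted p = 0.0307, adjusted p = 0.103) and Usp17le (0.0240 and 0.0854) were higher at 24 h on the unadjusted p. The share of all genes higher on the unadjusted p is not given here, so these counts have no comparison. No change of a member's nascent RNA passed the adjusted p at this depth. None of the other 28 listed 2-cell genes reached 0.5 FPKM in 3 libraries, and of the 19 regulators, which all did, none was called at 2, 6 or 24 h.

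**Figure D3:**
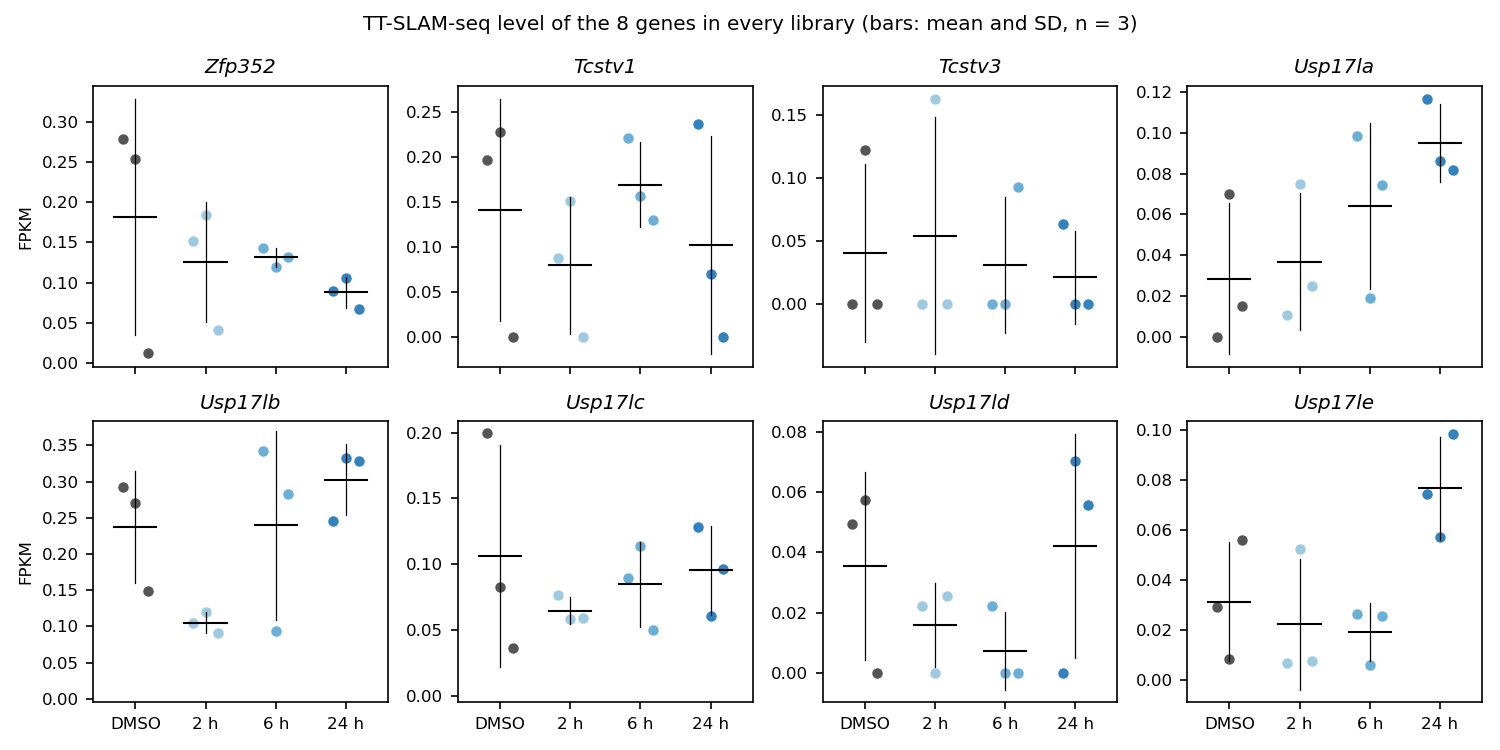
TT-SLAM-seq level (FPKM, vertical axis, 1 panel a gene) of the 8 genes in 12 libraries, for DMSO and 2, 6 and 24 h of dTAG-13 (horizontal axis). Points are libraries, horizontal bars the mean and vertical bars the SD (n = 3). Every value is below 0.35 FPKM, and in Usp17la and Usp17le the 24 h points lie above the DMSO points.

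At the loci themselves, few peaks were called. A gene was counted where a deposited peak overlapped it by 1 bp or more, from 2 kb before its start to its end. MED23, a subunit of the Mediator coactivator, had a peak in both DMSO libraries at 2 of 8 members, against 39.0% of 54409 annotated genes. At Zfp352 the peaks lay at chr4:90218601-90218802 and chr4:90218562-90218747, on the repeated 12-base units shown above and directly before the start, with fold enrichments of 4.45 and 3.68. At Usp17lc, the peaks lay at chr7:103415645-103415853 and chr7:103415647-103415865, beginning 573 and 575 bases after the annotated start, with fold enrichments of 4.20 and 5.89. The RefSeq start of Usp17lc lies further on. Its window of 250 bases is chr7:103416446-103416695, and both peaks lay before that window. After 24 h of dTAG-13 no member had a MED23 peak in both libraries, against 13.9% of genes. The whole MED23 lists held 63045 and 58925 peaks without dTAG-13 but 15335 and 14551 with it, so fewer were called everywhere. No member had an RNAPII peak with either treatment, against 23.4% of genes in DMSO and 11.9% with dTAG-13.

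H3K9me3, the mark that TRIM28 directs, had a peak in all 3 DMSO libraries at 2 of 8 members, Usp17lc and Usp17le, against 15.9% of genes. The highest fold enrichment at Usp17le was 2.99, 2.38 and 3.35 in these libraries. At Usp17lc the DMSO peaks were not at a single site. In the first library the peak lay at chr7:103418029-103418261. In the second they lay at chr7:103414695-103414876 and chr7:103415646-103415847, and in the third at chr7:103414624-103414787 and chr7:103415563-103415809. After dTAG-13, 0 of 8 had a peak in all 3 libraries, against 3.31%. The first dTAG-13 library held 11474 peaks against 105690 and 147611 in the other two, and without it Usp17la and Usp17le had a peak in both remaining libraries (2 of 8, against 12.3% of genes). Of the DMSO pair, Usp17le thus had a peak in these 2 libraries, whereas Usp17lc had one in the third dTAG-13 library alone. H3K27Ac, a mark of active regulatory elements, was found in all 3 DMSO libraries at 1 of 8, Usp17le (31.8% of genes), at fold enrichments of 2.58, 3.30 and 3.76. After dTAG-13 it was found in all 3 at 0 of 8 (19.9% of genes), and at 1 of 8, Usp17le, without the first library (23.6% of genes). The H3K9me3 and H3K27Ac peaks of Usp17le lay inside the gene, 1248 bases or more after its start. Reads of near-identical copies could be placed at either copy, and the counts rest on 2 or 3 libraries with no test.

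**Figure D4:**
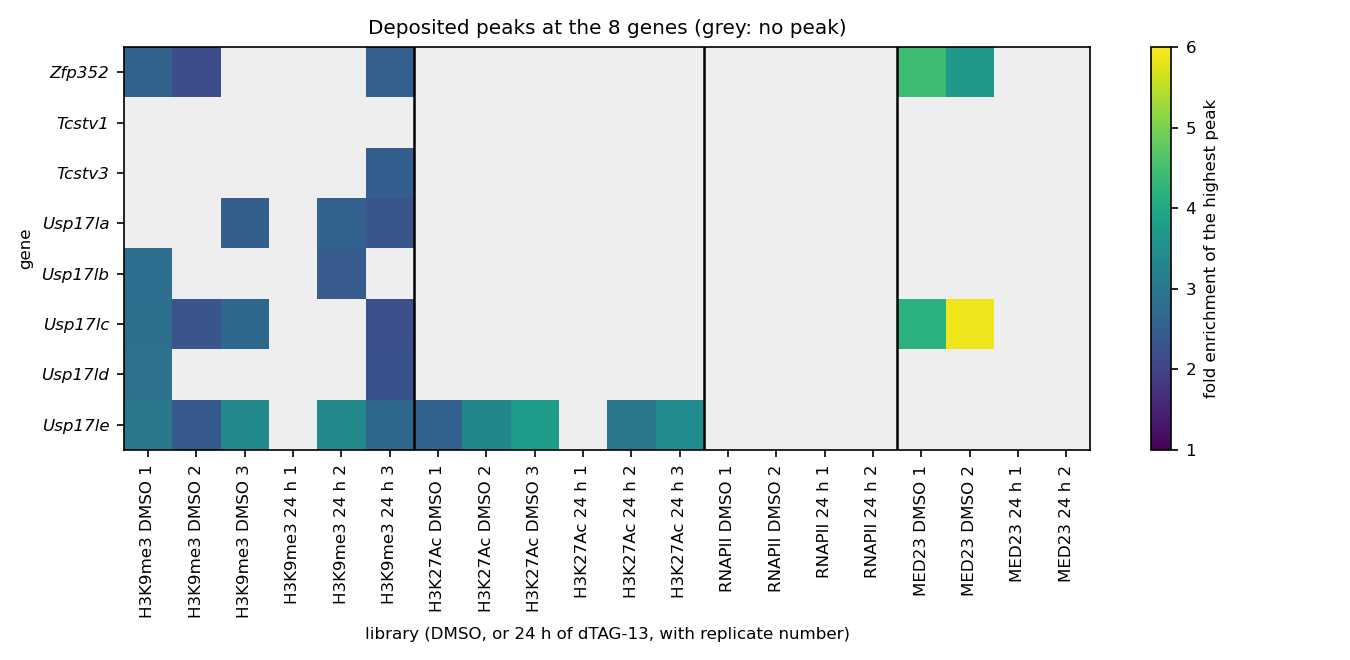
Fold enrichment (colour) of the highest deposited peak at each gene (rows), within the gene or the 2 kb before it, in every ChIP-seq library of H3K9me3, H3K27Ac, RNAPII and MED23 (columns: DMSO or 24 h of dTAG-13, and replicate number). Grey means that no peak was called; MED23 peaks appear at Zfp352 and Usp17lc in DMSO libraries only, and Usp17le carries H3K9me3 and H3K27Ac peaks in 5 of the 6 libraries of each mark.

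Genes most like each member over the 15 time course libraries were listed by Pearson r of log2(TPM + 0.5), as a description across libraries that share their treatment groups. For Usp17lb, 2 of the 5 closest were Zscan4 genes, Zscan4d (r = 0.97, first) and Zscan4e (0.96), with Gas8, Tchh and Macc1 (0.96 each). For Usp17ld the closest were Nat6, Tceal5, Nradd, Fam219a and Plod3 (r = 0.98 each), and for Usp17la they were Tmem119, Klhdc8b, Gm15222, Snrk and Tceal6 (0.96 to 0.97). For Usp17lc they were Ldb1, Meis3, Wnt10b, Itsn2 and Smox (0.96 each), and for Usp17le Lpcat4, Dmwd, Gm6556, Epm2a and Susd3 (0.96 to 0.97). Tcstv3 was closest to P3h1, Ubtd2, Cldn12, AC133498.1 and Gm18329 (0.95 to 0.96), Tcstv1 to Zfp456, Dhrs1, Gm44899, Ifnlr1 and Kiss1r (0.92 to 0.93), and Zfp352 to Zfp324, Parp8, Sall2, Adam17 and Pkd2 (0.94 to 0.95). Between members, r ran from -0.05 (Tcstv1 with Usp17lb) to 0.95 (Usp17la with Usp17ld). No member was among the 5 closest of another.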

How the data were processed

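RNA-seq of 30 libraries, TT-SLAM-seq of 12 and ChIP-seq peak lists of 20 were used. Per the labels, the authors trimmed reads with cutadapt 2.4, aligned RNA-seq to mm10 with STAR 2.7.5a and made TPM, FPKM and coverage values per gene with StringTie 2.0.6. For TT-SLAM-seq the authors counted reads with T-to-C conversions per gene and deposited FPKM values. Inspection showed that the length behind that FPKM is the genomic span of the gene, introns included. The deposited peaks carry a fold enrichment (a ratio) and −log10 p and q values of MACS2, called per library without spike-in scaling. Coverage served only to estimate the relative depth of RNA-seq libraries (0.322 to 1.78 of the median); how reads that fit several genes were handled by StringTie is not given in the sources used here, while the nascent counts gave such reads to every gene they fit.

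Values were tested as log2(value + 0.5) with limma 3.58.1 (lmFit, eBayes with a trend) in R 4.3.3, with Benjamini-Hochberg adjustment over all genes tested. Genes needed 1 TPM, or 0.5 FPKM, in 3 libraries. A gene was called at an adjusted p below 0.05 and more than 2-fold. The fit was tested on simulated data. A log2 change on this scale understates the change of low genes. Members, lists and the rule for named genes were chosen with earlier results of these data known: all 8 members, the 5 most alike genes of each, and up to 3 rises and falls of each list. Alternatives were other pseudocounts, no filter, centring, a replicate block, FPKM, voom on recovered reads, leaving out libraries, and other peak windows. Hi-C, input and single-cell data were not analysed here.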

Additional observations from a re-analysis of the deposited data

Results flagged for a closer look

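The 24 h response to dTAG-13 differed between the shERV line and the TRIM28-FKBP time course for each of the 8 genes in a test of the difference itself (limma interaction over 24 libraries, adjusted p below 0.05 for all 8, 4 of them more than 2-fold). On the log2 scale the shERV response minus the time course response was 1.02 for Zfp352, 0.63 for Tcstv1, 1.13 for Tcstv3, 0.88 for Usp17la, 1.45 for Usp17lb, 1.02 for Usp17lc, 0.97 for Usp17ld and 0.83 for Usp17le. The DMSO levels of both experiments were close for Tcstv1 (4.48, 4.71 and 4.46 TPM against 4.92, 4.06 and 5.48 TPM), whereas Usp17lb was at 5.79, 6.05 and 5.83 TPM against 3.42, 4.58 and 3.47 TPM. Usp17lb was the member called lower on adjusted p in the time course (-0.47) and higher in the shERV line (0.99). Zfp352 (-0.11 and 0.91) and Tcstv3 (-0.03 and 1.10) were higher at 24 h in the shERV line only. Their time course values did not pass unless libraries were centred. These values changed sign when single libraries were left out, so they set no direction. The line, the library type and the culture protocol cannot be told apart.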

How the results depend on the processing

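The replicate number did not pair the samples (correlations of deviations between same-numbered libraries -0.0576 to 0.123 in the time course), and the replicate block moved the number of members higher at 6 h on adjusted p from 1 to 2 and changed no other count by over 1.5 times. That 6 h number was 2 with a pseudocount of 1 or with FPKM, 0 without a filter or with centring, and 0 to 2 when libraries were left out in turn, so it rests on single libraries (0 without DMSO replicate 1 or 2 or 6 h replicate 1, and 2 without DMSO replicate 3 or 6 h replicate 2). Centring gave 1 higher and 3 lower at 24 h and 0 called at 96 h, as did FPKM at 96 h (0). Between 24 and 96 h, 1 was called with a pseudocount of 0.1 and 0 to 1 with libraries left out. For the difference between lines, 2 were called with a pseudocount of 1 or with FPKM, and 2 to 5 with libraries left out (2 without 24 h replicate 1, shERV DMSO replicate 1 or shERV dTAG-13 replicate 3). In the shERV line 4 were called higher with FPKM, 5 with centring, 8 with a pseudocount of 0.1, and 6 to 8 with libraries left out. With Dox, 4 were called lower with FPKM, centring or a pseudocount of 1. Peak counts in DMSO became 0 for H3K9me3 and H3K27Ac within 2 kb of the start and 0 for H3K9me3, H3K27Ac and MED23 among the 10000 highest peaks. With 10 kb on both sides, H3K9me3 was at 4 in DMSO and 1 after dTAG-13, and MED23 at 1 after dTAG-13. With libraries left out, H3K9me3 after dTAG-13 was at 0 to 2, and H3K27Ac at 0 to 1. Of the other 2-cell genes, the number called higher at 24 h went from 1 to 0 with a pseudocount of 1, centring or FPKM. Between 24 and 96 h it went from 4 to 2 with a pseudocount of 1 or FPKM.

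Of 1100 alternative values for single members, 1056 kept their direction and side of the threshold, and 24 changed sign, each a log2 difference that had not passed the adjusted p. The largest of them was that of Usp17lc at 24 h, 0.20 with a 95% interval of 0.0013 to 0.40, which passed without DMSO replicate 3 (adjusted p = 0.0159 by limma) or 24 h replicate 1 (0.0338). With libraries left out in turn, the ranges that crossed 0 were at 2 h Usp17la (-0.0398 to 0.121), Usp17lb (-0.00119 to 0.112), Usp17lc (-0.00443 to 0.176), Usp17ld (-0.0368 to 0.0867) and Usp17le (-0.130 to 0.114), at 24 h Zfp352 (-0.209 to 0.0198) and Tcstv3 (-0.128 to 0.0182), and between 24 and 96 h Tcstv1 (-0.107 to 0.179). For Dox and dTAG-13 against DMSO they were Tcstv1 (-0.0297 to 0.165), Usp17ld (-0.0731 to 0.251) and Usp17le (-0.144 to 0.0315). Centring turned Usp17le at 2 h (-0.00414), Tcstv3 at 6 h (-0.0282), Usp17lc at 24 h (-0.0888) and, for Dox and dTAG-13 against DMSO, Tcstv1 (-0.0165) and Usp17lb (-0.00405). Between 24 and 96 h, Tcstv1 was at -0.000397 with a pseudocount of 1 and -0.0978 with FPKM. Beyond these, 24 h calls on adjusted p were lost for Tcstv1, Usp17la and Usp17ld by centring and for Usp17la without DMSO replicate 2 (adjusted p = 0.0548 by limma) or 24 h replicate 2 (0.0584). The depth of TT-SLAM-seq limits what can be said of nascent RNA.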
